A study of Erigeron canadensis with 32 samples.

Results

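The genes described here carry the electrons of photosynthesis. They were taken from a count table of 54498 predicted genes of Erigeron canadensis (horseweed) as every gene whose best Arabidopsis thaliana hit has a description that names a photosystem, plastocyanin, a ferredoxin, the oxygen-evolving complex or cytochrome b6, with light-harvesting and chlorophyll-binding proteins left out. This gave 98 genes with 47 distinct Arabidopsis hits. Of these, 72 had a hit in the nuclear genome of Arabidopsis and 26 a hit in its plastid genome. No count or fold change entered this rule, but the rule was set with earlier results of these data known. The choice by words also brought in proteins that only resemble ferredoxins or carry the word in their names. The 22 nuclear-hit genes and 1 plastid-hit gene, a PSBG hit, that were placed in none of the roles below are kept apart as other genes.

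In the thylakoid membrane of the chloroplast, photosystem II draws electrons from water with its oxygen-evolving complex, the cytochrome b6f complex passes them to plastocyanin, and photosystem I lifts them to ferredoxin. Ferredoxin-NADP reductase then makes NADPH for carbon fixation, while other ferredoxin enzymes feed reducing power to nitrogen and sulfur assimilation and to thioredoxins. The reaction centre proteins are encoded in the plastid, most of the peripheral subunits and the soluble carriers in the nucleus, and mature leaves hold their transcripts among the most abundant.

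Leaf RNA was measured by RNA-seq in 32 libraries from rosettes of a glyphosate-resistant horseweed biotype. Plants received 2,4-D, or dicamba, or halauxifen-methyl, or else water only, and the spray of every group held the same type of non-ionic surfactant. The 3 herbicides are synthetic auxins, and each was applied at its own labelled field rate, so the doses differed between them. A single leaf was taken from each plant at 6 or 1 hours after treatment (HAT), with 4 plants and 4 libraries in each of the 8 groups, and no plant was sampled at both times. Library totals ran from 12588842 to 29111958 counts with a median of 18168133.5. Levels are given as CPM, the counts of a gene relative to the total of its library with TMM scaling, and levels of different genes are compared only per kilobase of coding length.

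The labelled tissue was checked against marker lists. Mesophyll markers, chiefly rubisco small subunits and rubisco activase, summed to between 11657 and 113309 CPM in the libraries, with 9 of 15 genes at a mean of 1 CPM or more. None of the 8 root markers reached that mean, and the single gene matched from the list for meristems and dividing cells had 0 counts everywhere.

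Of the 98 genes, 12 had 0 counts in every library and another 15 had between 1 and 10 counts in all libraries together. After the filter on low counts, 62 were tested in at least 1 comparison with water, 45 of them with a nuclear hit and 17 with a plastid hit. The filter kept 10 of 11 nuclear-hit photosystem I genes, 4 of 5 genes of the oxygen-evolving complex, all 7 leaf and root ferredoxins, 6 of 7 plastid-hit photosystem I genes and 10 of 18 plastid-hit photosystem II genes. It kept only 1 of 5 genes in the class of cytochrome b6f and plastocyanin and 2 of 7 ferredoxin reductases, so these classes rest on few genes.

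In water leaves at 6 HAT the highest levels per kilobase were those of the photosystem I subunit PSAN (HW_31687_g) at 20969 CPM per kilobase, the photosystem I subunit PSAL (HW_34904_g) at 18100 CPM per kilobase and the oxygen-evolving protein PSBQ-2 (HW_49334_g) at 17656 CPM per kilobase. The highest plastid-hit gene, a PSBE hit (HW_9378_g) for a subunit of cytochrome b559, had 73.8 CPM per kilobase. Libraries were made from poly(A)-selected RNA, which plastid transcripts largely lack, so the levels of nuclear-hit and plastid-hit genes are not on one footing and the groups are described separately.

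At 6 HAT the nuclear-hit genes took 6.02% ± 0.573 of all counts in 2,4-D leaves, 5.93% ± 0.932 in dicamba leaves and 5.13% ± 1.61 in halauxifen-methyl leaves, against 9.92% ± 1.12 in water leaves (SD, n = 4 each). Every library of the 3 herbicides lay below every water library at this time, the highest herbicide library at 7.13% after dicamba and the lowest water library at 8.38%. At 1 HAT the shares were 10.4% ± 0.801 with 2,4-D, 9.43% ± 1.21 with dicamba and 9.36% ± 2.08 with halauxifen-methyl, against 10.3% ± 0.872 after water, and each herbicide group overlapped the water group. Replicate 4 of halauxifen-methyl at 1 HAT stood low at 6.24%, below its 3 companions. A lower share in bulk leaf RNA can come from fewer mesophyll cells or from less of this RNA in each cell, and these cannot be told apart here.

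**Figure D1:**
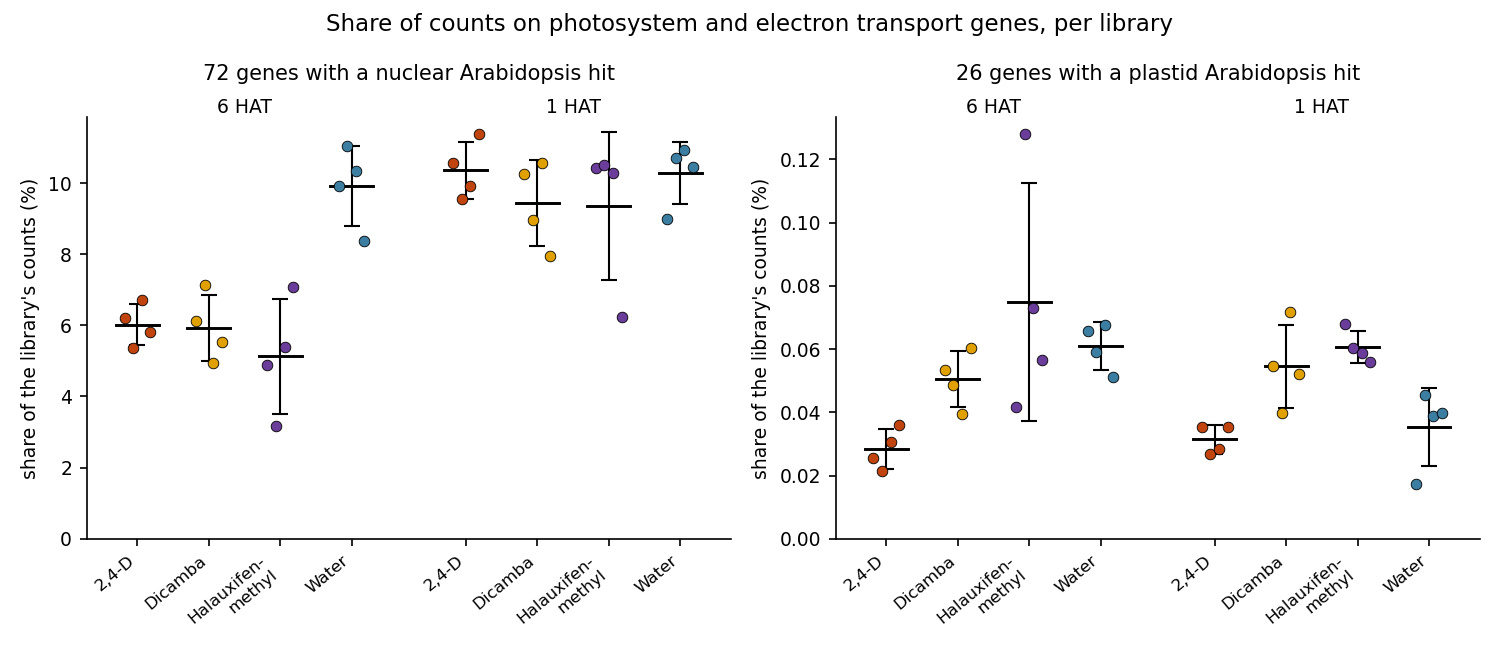
Share of each library's counts (%) on the 72 nuclear-hit genes (left panel) and the 26 plastid-hit genes (right panel), by treatment at 6 and 1 HAT. Points are libraries, each from 1 plant, thick lines are means and thin bars are SDs of 4 libraries. Nuclear-hit shares of all herbicide libraries at 6 HAT lie below the 4 water libraries, while plastid-hit shares are below water in all 4 libraries of 2,4-D only.

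Fold changes over the water group of each time came from edgeR's quasi-likelihood test across all genes that passed the filter, with a call at an adjusted p of 0.05 or less. At 6 HAT, 29 of the 59 tested genes fell after 2,4-D and 2 rose, where 9.41% of all tested genes fell and 10.3% rose (19.7% in either direction). After dicamba 11 of 59 fell and 1 rose, against 3.96% and 5.64% of all tested genes (9.6% in either direction). After halauxifen-methyl 17 of 60 fell and 2 rose, against 6.13% and 8.55% of all tested genes (14.7% in either direction). The median log2 fold changes of the tested genes were -0.79, -0.53 and -0.71 after 2,4-D, dicamba and halauxifen-methyl, where those of all tested genes were 0.02, 0.06 and 0.05. The 3 comparisons share their 4 water libraries, so their values are not independent of each other.

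Herbicide libraries lay wholly below water libraries for 26 genes with 2,4-D, 16 with dicamba and 20 with halauxifen-methyl, where 12.1%, 8.13% and 9.72% of all tested genes did so. They lay wholly above water for 4, 3 and 2 genes in the same order, where 14.2%, 9.66% and 13.7% of all tested genes did so. The number of genes that fell after dicamba was 7 without water replicate 2, without water replicate 3 or without dicamba replicate 4 of 6 HAT. After halauxifen-methyl it was 9 without water replicate 2, 10 without water replicate 3 and 7 without halauxifen-methyl replicate 1. The number that rose after dicamba was 2 without water replicate 1. In 1 fit of all 32 libraries the number that fell after 2,4-D was 18 and not 29.

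Marker sums were also compared at 6 HAT. Those of mesophyll were lower after the herbicides than after water, and those of epidermis with guard cells and of flowers were higher. Vasculature markers, of which 1 of 5 reached a mean of 1 CPM, overlapped water after every herbicide. Their medians were 11.3, 9.38 and 11.4 CPM after 2,4-D, dicamba and halauxifen-methyl, against 10.6 CPM after water. Mesophyll markers summed to medians at 6 HAT of 30486 CPM with 2,4-D, 20193 CPM with dicamba and 23914 CPM with halauxifen-methyl, against 50520 CPM after water, and the highest herbicide library, at 34976 CPM, lay below the lowest water library, at 39811 CPM. Mesophyll markers are themselves photosynthesis genes, and in water leaves of 1 HAT they summed to between 67020 and 92932 CPM. Epidermis and guard cell markers, of which 2 of 5 reached a mean of 1 CPM, ran from 93.2 to 167 CPM in the herbicide libraries of 6 HAT, against 49.98 to 65.4 CPM in the water libraries of 6 HAT and 94.8 to 174 CPM in those of 1 HAT. Flower markers, of which 2 of 8 reached a mean of 1 CPM and 4 were at 0 in all libraries, also moved at 6 HAT, with sums of 26.7 to 44.7 CPM after 2,4-D, 16.8 to 37.1 CPM after dicamba and 7.25 to 17.9 CPM after halauxifen-methyl, against 1.93 to 4.45 CPM after water. The part of cell composition in the lower levels was not tested.

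**Figure D2:**
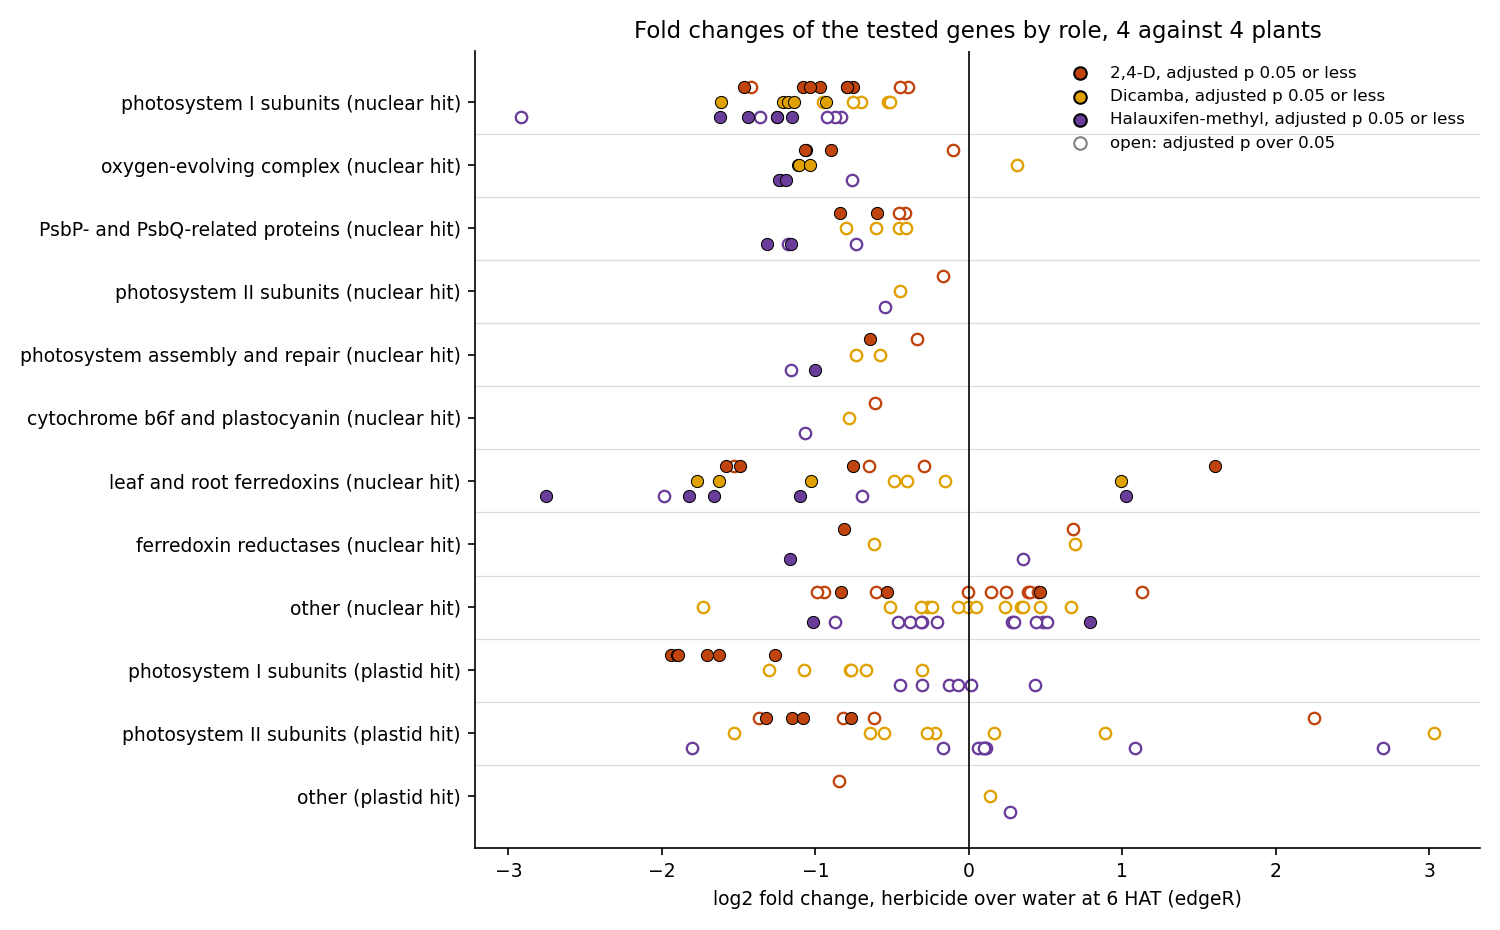
Log2 fold change of every tested gene at 6 HAT, herbicide over water, by role and by the genome of the Arabidopsis hit. Each point is 1 gene, filled points have an adjusted p of 0.05 or less, and each comparison has 4 plants a side. Nuclear-hit subunits of photosystem I and the oxygen-evolving complex lie mostly below 0 after all 3 herbicides, while filled points among plastid-hit genes occur after 2,4-D only.

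The nuclear-hit subunits of photosystem I fell in 7 of 10 tested genes after 2,4-D, 5 of 10 after dicamba and 5 of 10 after halauxifen-methyl, with median log2 fold changes of -0.88, -0.94 and -1.25. None rose. PSAN (HW_31687_g), a lumenal subunit, had 5459, 3963, 5756 and 4661 CPM after 2,4-D, 5082, 5616, 3381 and 3888 CPM after dicamba and 3453, 2017, 4025 and 5976 CPM after halauxifen-methyl, against 11319.8, 12577, 10892 and 7234 CPM after water. All 12 herbicide libraries were below all water libraries, although water replicate 4 was nearest to them. The log2 fold changes of PSAN were -1.08 ± 0.20 after 2,4-D (SE, adjusted p = 0.0024), -1.21 ± 0.25 after dicamba (adjusted p = 0.0096) and -1.44 ± 0.34 after halauxifen-methyl (adjusted p = 0.018).

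PSAF (HW_48562_g), which forms part of the docking site of plastocyanin, fell 1.96-fold, 2.26-fold and 2.38-fold after 2,4-D, dicamba and halauxifen-methyl. PSAH-1 (HW_9242_g), known in Arabidopsis for docking light-harvesting complex II during state transitions, fell 2.05-fold, 2.20-fold and 2.38-fold. Both had all herbicide libraries below all water libraries. The halauxifen-methyl calls of PSAN, PSAF and PSAH-1 were lost without water replicate 2, water replicate 3 or halauxifen-methyl replicate 1, with adjusted p up to 0.062, 0.079 and 0.075 over the libraries left out. The dicamba call of PSAH-1 was lost without water replicate 2 or 3 or dicamba replicate 4 (adjusted p up to 0.062). The more abundant PSAL hit (HW_34904_g), whose product binds beside PsaH, fell after 2,4-D and halauxifen-methyl (log2 fold changes of -0.79 and -1.15), while its value after dicamba was -0.95 with an adjusted p of 0.076. Its groups overlapped through water replicate 4. The 2,4-D call of PSAL was lost without water replicate 2 or 3 or 2,4-D replicate 1 or 2 (adjusted p up to 0.066), and the halauxifen-methyl call without water replicate 1, 2 or 3 or halauxifen-methyl replicate 1, 2 or 3 (adjusted p up to 0.097).

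Of the PSAE-2 hits, both of which encode a stromal subunit that helps ferredoxin dock, HW_16037_g had the larger fold changes. It had 896, 596, 917 and 673 CPM after 2,4-D, 804, 818, 492 and 631 CPM after dicamba and 576, 390.0, 869.8 and 934 CPM after halauxifen-methyl, against 1883, 2524, 2452 and 1665 CPM after water. The groups did not overlap, and the log2 fold changes were -1.46 ± 0.19, -1.62 ± 0.23 and -1.62 ± 0.30 (SE, adjusted p = 0.00021, 0.001 and 0.0049). HW_16229_g, the more abundant of the pair per kilobase, had 4434, 3306, 4332 and 3634 CPM after 2,4-D, 3303, 4294, 2261 and 3199 CPM after dicamba and 2775, 2034, 3034 and 4217 CPM after halauxifen-methyl, against 6403, 6425, 5643 and 2982 CPM after water. Water replicate 4 lay below all 2,4-D libraries of HW_16229_g and within the dicamba and halauxifen-methyl ranges, the other water libraries lay above all herbicide libraries, and the log2 fold changes of -0.45, -0.70 and -0.83 did not pass the test (adjusted p = 0.24, 0.19 and 0.11).

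The ratio of these genes was taken within each library, which removes library scaling. The log2 ratio of HW_16229_g to HW_16037_g averaged 2.36 with 2,4-D, 2.24 with dicamba and 2.16 with halauxifen-methyl, against 1.29 after water. Every herbicide library lay above every water library, whose highest ratio was 1.77. The exact permutation test of each herbicide against water gave a two-sided p of 0.0286, the smallest that 4 against 4 libraries allow, and 0.0796 after adjustment over the 39 ratio tests made for 13 pairs of genes with 1 shared hit. Where similar copies can exchange reads, their ratio is uncertain.

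**Figure D3:**
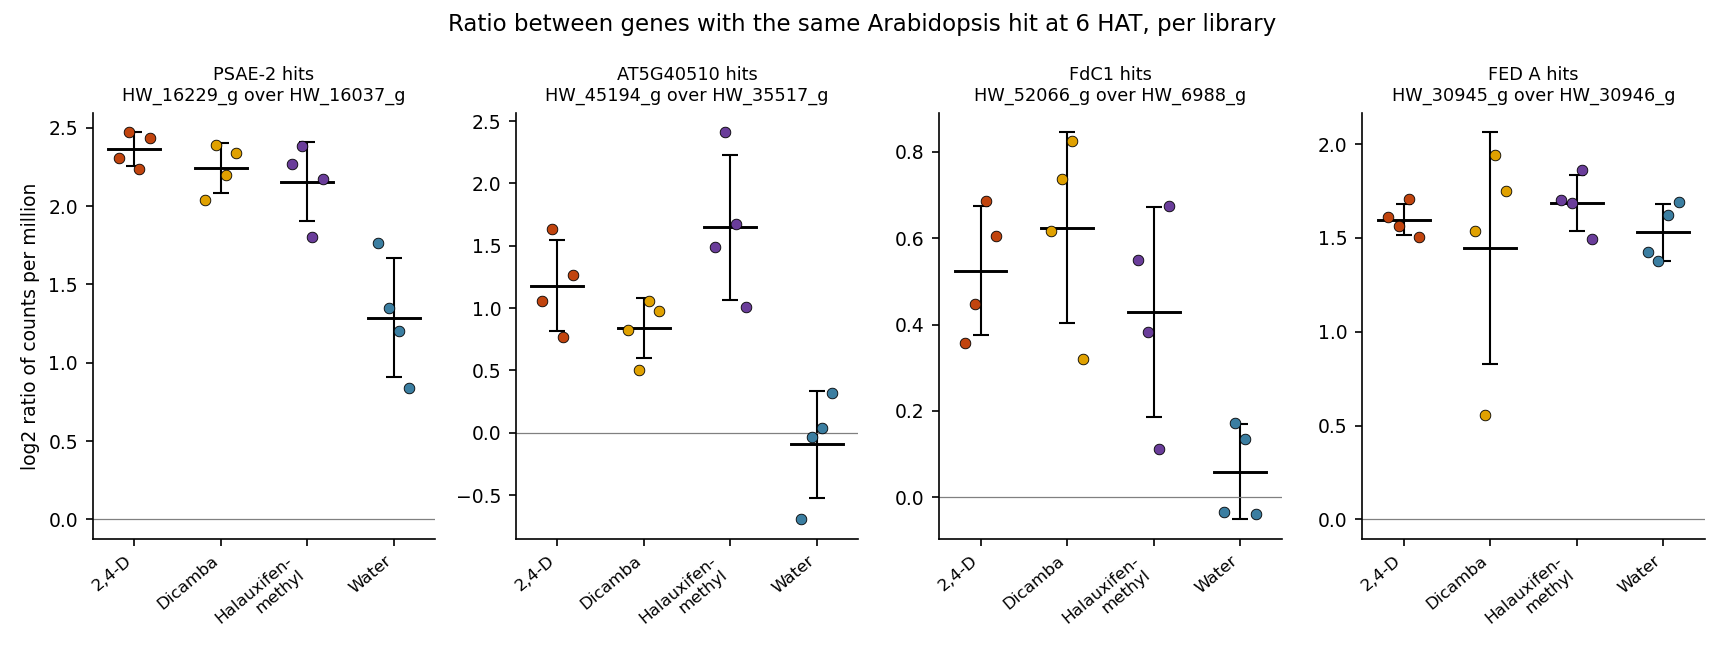
Log2 ratio of CPM (0.5 added to each) between genes with the same Arabidopsis hit in each library of 6 HAT. Points are libraries, thick lines means and thin bars SDs of 4 libraries. The PSAE-2 and AT5G40510 ratios of all herbicide libraries lie above those of all water libraries, whereas the FED A ratios of every herbicide overlap water.

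At the lumenal face of photosystem II, 3 of the 4 tested genes of the oxygen-evolving complex fell after each herbicide. PSBO2 (HW_34248_g), the manganese-stabilising protein, had 7288, 5393, 7995 and 7550.0 CPM after 2,4-D, 6621, 8359, 6104 and 5902 CPM after dicamba and 5039, 4079, 8339.6 and 7686 CPM after halauxifen-methyl, against 15291, 17410.4, 14631 and 11588 CPM after water. No herbicide library reached the lowest water library. Its log2 fold changes were -1.06 ± 0.18, -1.11 ± 0.22 and -1.23 ± 0.28 (SE, adjusted p = 0.0013, 0.0065 and 0.015).

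PSBQ-2 (HW_49334_g) and PSBP-1 (HW_52495_g), the other extrinsic proteins that hold the oxygen-evolving site, had similar values, with log2 fold changes of -1.06, -1.11 and -1.24 for PSBQ-2 and -0.90, -1.03 and -1.19 for PSBP-1. The remaining tested gene, a PSBP-1 hit of low level (HW_36782_g, mean of 12.4 CPM in water at 6 HAT), did not pass the test after any herbicide (-0.10, 0.31 and -0.76). The halauxifen-methyl calls of PSBO2, PSBQ-2 and PSBP-1 were lost without halauxifen-methyl replicate 1, and that of PSBO2 also without water replicate 2, that of PSBQ-2 without water replicate 3 and that of PSBP-1 without either, with adjusted p up to 0.060, 0.054 and 0.073. The dicamba call of PSBQ-2 was lost without water replicate 2, water replicate 3, dicamba replicate 1 or dicamba replicate 4, with adjusted p up to 0.071.

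Of 4 tested genes for proteins related to PsbP, PPD5 (HW_13278_g) and the hit of AT1G76450 (HW_14828_g) fell after 2,4-D and after halauxifen-methyl, with log2 fold changes of -0.60 and -1.16 for PPD5 and -0.84 and -1.32 for AT1G76450, and none passed the test after dicamba. The AT2G28605 hit (HW_4653_g) was at -0.45, -0.41 and -0.73 after 2,4-D, dicamba and halauxifen-methyl, without a call. Among assembly factors, HCF136 (HW_11401_g), needed in Arabidopsis to build photosystem II, fell after halauxifen-methyl (-1.01, adjusted p = 0.019), and PSB28 (HW_3815_g) fell after 2,4-D (-0.64, adjusted p = 0.040). The 2,4-D call of PPD5 was lost without any single library other than water replicate 1 (adjusted p up to 0.076). That of AT1G76450 was lost without water replicate 2 or 2,4-D replicate 1, 2 or 4 (adjusted p up to 0.12), and that of PSB28 without water replicate 2 or 3 or 2,4-D replicate 2, 3 or 4 (adjusted p up to 0.12). The HCF136 call was lost without water replicate 2 or halauxifen-methyl replicate 1 (adjusted p up to 0.065).

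Some abundant genes did not pass the test after any herbicide. PETE1 (HW_37480_g), the plastocyanin that carries electrons to photosystem I, had 2713, 2054, 2651 and 2068 CPM after 2,4-D, 2358, 2596, 1309 and 2108 CPM after dicamba and 1395, 950.0, 1342 and 3205 CPM after halauxifen-methyl, against 4105, 4476, 3493 and 2447 CPM after water. Only water replicate 4 fell within the herbicide ranges, and the log2 fold changes were -0.61, -0.78 and -1.07 (adjusted p = 0.052, 0.11 and 0.095). PSBW (HW_32757_g), a small photosystem II subunit, was at -0.17, -0.45 and -0.55 (adjusted p = 0.70, 0.36 and 0.34).

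Ferredoxins moved in both directions. FED A is the main leaf ferredoxin of Arabidopsis, and its hits HW_30945_g (positions 1264 to 1702) and HW_30946_g (positions 3557 to 3997) stand next to each other on the plus strand of 1 contig of the draft assembly, with coding lengths of 384 and 441 bases. HW_30945_g had 1038, 546, 1009 and 739 CPM after 2,4-D, 811, 570.1, 631 and 713 CPM after dicamba and 647, 353, 1074 and 902 CPM after halauxifen-methyl, against 2094, 2586, 2675 and 2019 CPM after water. The groups did not overlap, and the gene fell 2.81-fold, 3.41-fold and 3.15-fold, with log2 fold changes of -1.49 ± 0.20, -1.77 ± 0.19 and -1.66 ± 0.32 (SE, adjusted p = 0.00032, 0.00016 and 0.0064). HW_30946_g fell 2.99-fold, 3.09-fold and 3.54-fold, also with no overlap.

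The ratio of the adjacent copies was compared in the same way. The log2 ratio of HW_30945_g to HW_30946_g was 1.60 with 2,4-D, 1.45 with dicamba and 1.69 with halauxifen-methyl, against 1.53 after water, and the exact permutation tests gave p = 0.429, 0.914 and 0.171 before adjustment. The dicamba ratios were the most spread, from 0.556 to 1.94 with an SD of 0.617, against 1.38 to 1.69 after water. Among the 39 ratio tests even those at the smallest possible exact permutation p stood at 0.0796 after adjustment. A change in ratio is therefore neither shown nor excluded. Of the FdC1 hits, which encode a ferredoxin with an extended C terminus, HW_6988_g fell after all 3 herbicides (-0.75, -1.03 and -1.10), whereas HW_52066_g was at -0.29, -0.49 and -0.69 without a call. The dicamba call of HW_6988_g was lost without water replicate 2, 3 or 4 or dicamba replicate 4 (adjusted p up to 0.078), and its halauxifen-methyl call without halauxifen-methyl replicate 1 (adjusted p = 0.054). Their ratio lay above water in every library after 2,4-D and dicamba (exact permutation p = 0.0286, adjusted p = 0.0796) and overlapped water after halauxifen-methyl.

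FD3 (HW_13258_g) is the hit of a ferredoxin that in Arabidopsis is found mainly in roots and other non-photosynthetic tissue. It had 331, 281, 270.2 and 269 CPM after 2,4-D, 245, 162, 144 and 197 CPM after dicamba and 200.3, 164, 185 and 225 CPM after halauxifen-methyl, against 89.6, 105, 99.7 and 86.00 CPM after water. All herbicide libraries were above all water libraries. FD3 rose 3.04-fold, 1.99-fold and 2.03-fold, with log2 fold changes of 1.60 ± 0.12, 0.99 ± 0.20 and 1.02 ± 0.16 (SE, adjusted p = 4.4e-06, 0.0073 and 0.0021).

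The calls against water of FD3, both abundant FED A hits and the PSAE-2 hit HW_16037_g held in every alternative fit and with any single library left out. No root marker of the 8 reached a mean of 1 CPM, 5 of them were at 0 in all libraries, and their summed level was at most 3.41 CPM in any library.

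**Figure D4:**
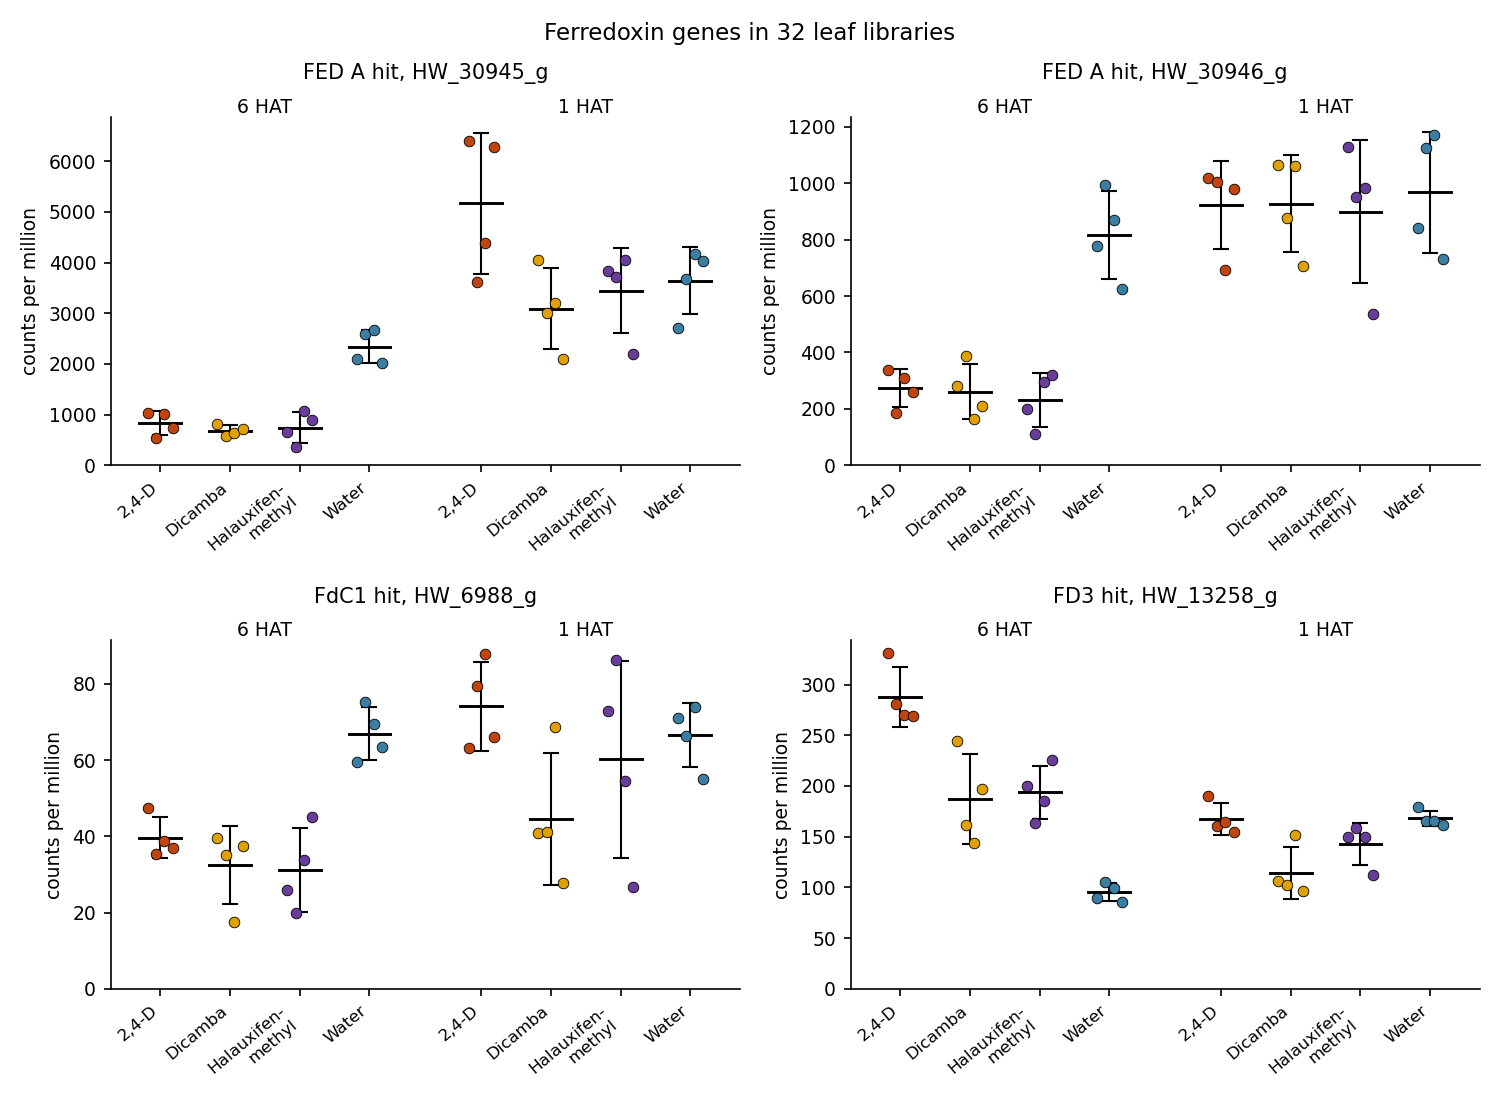
CPM of 4 ferredoxin genes by treatment at 6 and 1 HAT. Points are libraries, thick lines means and thin bars SDs of 4 libraries, and each axis starts at 0. At 6 HAT both FED A hits and the FdC1 hit HW_6988_g lie below water in all herbicide libraries and FD3 lies above, with water between 86.0 and 105 CPM.

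Of the tested ferredoxin reductases, FNR2 (HW_29826_g), which passes electrons from ferredoxin to NADP, had 1911, 1618, 1983 and 1668 CPM after 2,4-D, 1824, 1785, 3208 and 1396 CPM after dicamba and 1151, 979.6, 1862 and 1657 CPM after halauxifen-methyl, against 2748, 3841, 3059.6 and 3015 CPM after water. It fell after 2,4-D (-0.81, adjusted p = 0.0016) and halauxifen-methyl (-1.17, adjusted p = 0.0095). After dicamba, replicate 3 lay within the water range and the value was -0.62 (adjusted p = 0.18). The hit for the catalytic subunit of ferredoxin-thioredoxin reductase (AT2G04700, HW_33405_g) ran from 5.87 to 15.7 CPM in herbicide libraries against 4.81 to 9.40 CPM in water libraries, with no call.

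Among the other nuclear-hit genes, 13 were tested at 6 HAT. The 3 tested hits of AT5G40510, annotated as a sucrase/ferredoxin-like protein, included 1 that fell and 1 that rose after 2,4-D and after halauxifen-methyl. Neither had a call after dicamba, where HW_35517_g overlapped water and every library of HW_45194_g lay above every water library. The remaining hit, HW_20046_g, was at 0.39 after 2,4-D without a call (adjusted p = 0.11). HW_35517_g had 33.9, 25.7, 39.03 and 36.6 CPM after 2,4-D and 31.6, 24.3, 34.7 and 29.2 CPM after halauxifen-methyl, against 75.4, 56.7, 56.6 and 51.98 CPM after water, and its log2 fold changes were -0.83 and -1.01 with no overlap (adjusted p = 0.0059 and 0.0050). HW_45194_g was at 0.46 after 2,4-D and 0.79 after halauxifen-methyl (adjusted p = 0.039 and 0.038), and its groups overlapped after halauxifen-methyl through replicate 4. The 2,4-D call of HW_45194_g was lost without any single library other than water replicate 4 and 2,4-D replicate 3 (adjusted p up to 0.12), and the halauxifen-methyl call without any other than halauxifen-methyl replicate 4 (adjusted p up to 0.11).

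Beyond these genes, a list of other components of thylakoid electron transport held 31 Arabidopsis genes, of which 25 had hits in 36 horseweed genes and 22 of these were tested. This list was drawn up with earlier results of these data known, so its counts are not independent support. The number that fell was 14 with 2,4-D, 9 with dicamba and 13 with halauxifen-methyl, where 9.41%, 3.96% and 6.13% of all tested genes fell. No gene of the list was higher, where 10.3%, 5.64% and 8.55% of all tested genes were. The median log2 fold changes of the list were -0.63, -0.65 and -0.96. PSBS (HW_8953_g), which dissipates excess light energy, fell after all 3 (-1.02, -1.13 and -1.36), as did PnsB3 (HW_7585_g), a subunit of the chloroplast NADH dehydrogenase-like complex (-1.60, -1.33 and -1.71), and TROL (HW_8257_g), the membrane anchor of ferredoxin-NADP reductase (-1.02, -1.12 and -1.33). The Rieske protein hit PETC (HW_46113_g) of the cytochrome b6f complex fell after 2,4-D and dicamba (-0.58 and -0.83) and was at -0.84 after halauxifen-methyl (adjusted p = 0.057). Its 2,4-D and water libraries overlapped. The other tested PETC hit, HW_18993_g, was at 0.01, -0.60 and -0.04 after 2,4-D, dicamba and halauxifen-methyl, without a call.

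Genes with a plastid hit passed the test after 2,4-D but not after the other herbicides. After 2,4-D, 10 of the 15 tested fell and none rose, with a median log2 fold change of -1.26. After dicamba none of 15 and after halauxifen-methyl none of 16 passed edgeR's test in either direction, with medians of -0.55 and 0.07. At an unadjusted p under 0.05, 3 were lower and 1 higher after dicamba, and 1 was lower and 1 higher after halauxifen-methyl. Shares of all tested genes at that unadjusted threshold were not computed. DESeq2 and edgeR's exact test each called 1 lower after dicamba and 0 lower after halauxifen-methyl. The nuclear-hit genes that fell numbered 19, 11 and 17 of 44 after 2,4-D, dicamba and halauxifen-methyl, with medians of -0.63, -0.52 and -1.01. The plastid-hit count of 10 after 2,4-D was 6 without water replicate 2. The counts of 0 were 1 after dicamba without water replicate 4 and 1 after halauxifen-methyl without halauxifen-methyl replicate 3.

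Hits of the reaction centre of photosystem I were among those that fell after 2,4-D. The PSAB hit HW_50608_g had 19.1, 11.9, 18.3 and 31.5 CPM after 2,4-D, 45.4, 73.2, 18.1 and 50.6 CPM after dicamba and 31.3, 110.0, 76.2 and 61.2 CPM after halauxifen-methyl, against 109, 68.3, 73.8 and 49.7 CPM after water. Only the 2,4-D libraries lay wholly below water. The log2 fold changes were -1.90 ± 0.31 after 2,4-D (SE, adjusted p = 0.0011), -0.67 after dicamba (adjusted p = 0.38) and -0.13 after halauxifen-methyl (adjusted p = 0.88). Its neighbour on the same contig, the PSAA hit HW_50607_g, was at -1.94, -0.77 and -0.31, and another PSAA hit (HW_821_g) at -1.89, -0.77 and -0.07. Several of these gene models are short pieces, with coding lengths of 583 bases for HW_50607_g and 526 bases for the PSAB hit HW_6709_g, and they may share reads with each other.

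For photosystem II, the PSBC hit HW_40820_g, for the inner antenna protein CP43, had 54.9, 38.7, 54.1 and 74.1 CPM after 2,4-D, 92.1, 69.7, 83.6 and 130.2 CPM after dicamba and 82.9, 238, 157 and 116 CPM after halauxifen-methyl, against 149, 145, 159 and 101 CPM after water. Its log2 fold change after 2,4-D was -1.32 with no overlap (adjusted p = 0.00081) and overlapped water after the others. The PSBB hit HW_9377_g, for the antenna protein CP47, fell after 2,4-D (-1.08), and the PSBE hit HW_9378_g, on the same contig as HW_9377_g, also fell (-0.77). The PSBA hit HW_54117_g, for the D1 protein, was at -0.82, -0.22 and 1.08 with no call. Its halauxifen-methyl libraries had 33.5, 261, 97.3 and 27.1 CPM, against 28.2, 66.3, 66.5 and 33.6 CPM after water, so replicate 2 stood far above the rest and the other 3 spanned the water range. The PSBD hit HW_48915_g, whose annotation is uncertain, was the plastid-hit gene with the largest fold changes, at 2.25, 3.03 and 2.70 without a call (adjusted p = 0.17, 0.11 and 0.12). It had 1.59 to 7.29 CPM in the herbicide libraries, against 0, 0.550, 1.57 and 0.442 CPM after water, and lay above water without overlap.

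The herbicides were also compared directly at 6 HAT, with the caution that doses differed. Between 2,4-D and halauxifen-methyl, 5 of the 60 tested genes were lower after 2,4-D, where 5.07% of all tested genes were, and 2 were higher, where 2.96% were (8.04% in either direction). The 5 lower genes all had plastid hits. They were the PSAB hits HW_50608_g (-1.79, adjusted p = 0.015) and HW_6709_g (-1.71, adjusted p = 0.038), the PSAA hits HW_50607_g (-1.65, adjusted p = 0.0078) and HW_821_g (-1.84, adjusted p = 0.016), and the PSBC hit HW_40820_g (-1.42, adjusted p = 0.016). The 2 higher ones were FD3 (0.56, adjusted p = 0.044) and the AT4G32590 hit HW_16219_g (0.69, adjusted p = 0.037). Neither count stood far from the share of all tested genes. The PSAA and PSAB hits may share reads with each other, so they may not be separate results.

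The number of genes called between 2,4-D and halauxifen-methyl, 7, was 2 without 2,4-D replicate 1, 1 without 2,4-D replicate 2 or replicate 3, 4 without halauxifen-methyl replicate 2 and 15 without halauxifen-methyl replicate 4. It was 12 by DESeq2, 13 by the exact test of edgeR and 11 without the low-count filter. Its 5 plastid-hit genes were 2 without 2,4-D replicate 1, 1 without 2,4-D replicate 2 or 3, 8 without halauxifen-methyl replicate 1 and 9 without halauxifen-methyl replicate 4. The FD3 call of this pair was lost without any single library other than halauxifen-methyl replicate 4 (adjusted p up to 0.13), and that of HW_16219_g without any other than halauxifen-methyl replicates 3 and 4. No nuclear-hit subunit of photosystem I or the oxygen-evolving complex passed the test in any herbicide pair. For PSAF the 95% intervals of the log2 difference were -0.21 to 0.60 for 2,4-D over dicamba and -0.34 to 0.86 for 2,4-D over halauxifen-methyl. For the PSAB hit HW_50608_g, 2,4-D over dicamba was at -1.24 with an interval of -2.10 to -0.38 (adjusted p = 0.34).

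Between 2,4-D and dicamba, edgeR called none of 58 genes, where 0.104% of all tested genes were called lower and 0.415% higher (0.519% in either direction). At an unadjusted p under 0.05, 11 of the 58 were lower and 1 higher after 2,4-D. The share of all tested genes at that unadjusted threshold was not computed. The 2,4-D libraries lay wholly below the dicamba libraries for 1 gene and wholly above them for 1, where 2.59% and 3.51% of all tested genes did so. The number called by edgeR was 3 without dicamba replicate 3. Between dicamba and halauxifen-methyl edgeR called none of 60, where 0.272% and 0.217% of all tested genes were called lower and higher (0.489% in either direction). At an unadjusted p under 0.05, 1 of the 60 was lower and 4 higher after dicamba, again without a share of all tested genes. DESeq2 and edgeR's exact test called 0 in both pairs.

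**Figure D5:**
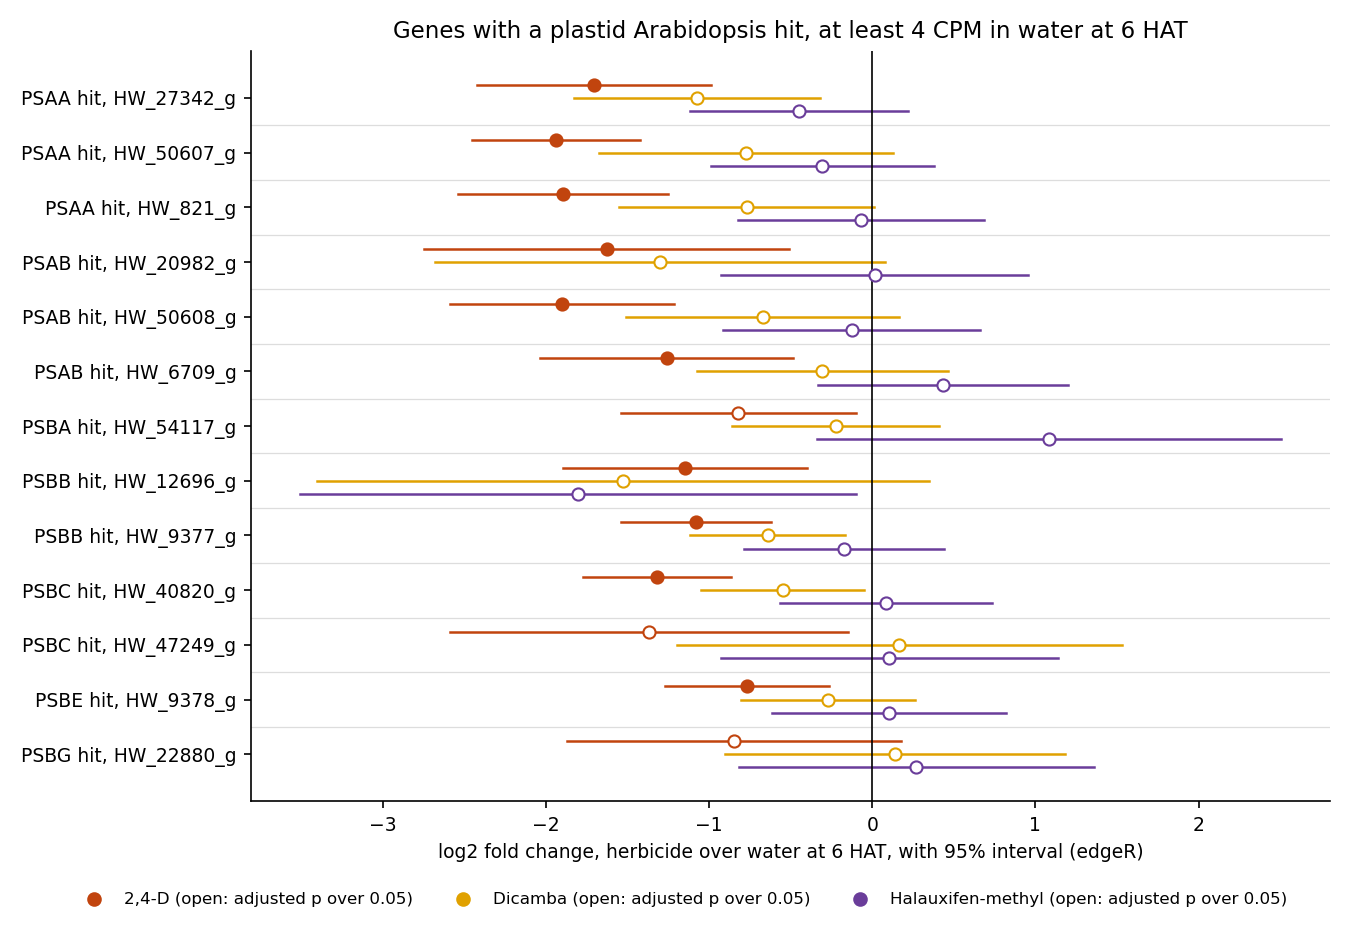
Log2 fold change with its 95% interval for the 13 plastid-hit genes at a mean of 4 CPM or more in water at 6 HAT and tested for every herbicide, herbicide over water. Filled points have an adjusted p of 0.05 or less and n is 4 plants a side. Filled points occur after 2,4-D only, and the PSAA, PSAB and PSBC values after 2,4-D lie at or below -1.26.

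The share of counts on plastid-hit genes varied between libraries that were not treated. It ran from 0.0214% to 0.0361% after 2,4-D, 0.0394% to 0.0603% after dicamba and 0.0416% to 0.128% after halauxifen-methyl at 6 HAT, against 0.0510% to 0.0677% after water. Halauxifen-methyl replicate 2 had both the highest plastid-hit share, 0.128%, and the lowest nuclear-hit share, 3.17%. At 1 HAT the plastid-hit shares were 0.0267% to 0.0354% after 2,4-D, 0.0398% to 0.0717% after dicamba and 0.0560% to 0.0678% after halauxifen-methyl, against 0.0173% to 0.0454% after water. The 2,4-D libraries of 6 HAT therefore lay within the range of water at 1 HAT. Plastid-hit genes outside the list moved with them at 6 HAT, at 0.0197% to 0.0338% after 2,4-D against 0.0483% to 0.0712% after water, and the part of poly(A) selection and of carried-over plastid RNA was not tested.

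At 1 HAT edgeR called no gene lower or higher after any herbicide. The counts of lower and higher genes at an unadjusted p under 0.05 were 0 and 6 of 60 after 2,4-D, 4 and 3 of 59 after dicamba and 0 and 3 of 59 after halauxifen-methyl. The shares of all tested genes at that unadjusted threshold were not computed. At an adjusted p of 0.05 or less, 0.919% of all tested genes were called lower and 0.898% higher after 2,4-D (1.82% in all), 1.19% and 1.23% after dicamba (2.42% in all), and 0.0% and 0.176% after halauxifen-methyl. Herbicide libraries lay wholly below water for 1 gene with each herbicide, where 4.67%, 5.46% and 1.32% of all tested genes did so, and wholly above for 3, 3 and 1, where 3.9%, 5.06% and 1.96% did so. Without water replicate 4 the 2,4-D test called 1 higher, and without dicamba replicate 3 the dicamba test called 1 lower. DESeq2 called 1 gene, higher after dicamba, and edgeR's exact test called 1 lower and 1 higher after dicamba. The median log2 fold changes were 0.07, 0.02 and -0.03.

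FD3 levels differed between the times. At 1 HAT it had 190.3, 160.2, 165 and 155 CPM after 2,4-D, 106, 102, 152 and 96.6 CPM after dicamba and 150.2, 158, 149.8 and 112 CPM after halauxifen-methyl, against 179, 166, 165 and 162 CPM after water. Every dicamba and halauxifen-methyl library of 1 HAT thus lay below every water library of 1 HAT, without a call (log2 fold change -0.55 after dicamba, adjusted p = 0.17). In water leaves FD3 was lower at 6 HAT than at 1 HAT (log2 difference -0.84, adjusted p = 0.0017). After 2,4-D and after halauxifen-methyl every library at 6 HAT was above every library at 1 HAT, and after dicamba the times overlapped. Between 6 and 1 HAT in water, 4 of 59 tested genes were lower and 1 was higher, where 7.42% and 6.44% of all tested genes were. The other lower genes were the FED A hit HW_30945_g (-0.66), PSB28 (-0.73) and the FED A hit HW_54329_g, and the higher one was the AT4G26620 hit HW_12157_g (0.82). Against that water group of 6 HAT, HW_12157_g fell after 2,4-D with no overlap (log2 fold change -0.53, adjusted p = 0.033).

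HW_54329_g was high in water replicate 4 of 1 HAT, with 379 CPM against 4.01 to 9.97 CPM in the other water libraries of that time. The number of lower genes in water was 2 without replicate 2 or 3 of 1 HAT or without replicate 1 or 2 of 6 HAT, and 1 without replicate 3 or 4 of 6 HAT. The call of HW_30945_g in water was lost without any single library other than replicate 1 of 1 HAT (adjusted p up to 0.13), and that of PSB28 without replicate 2 or 3 of 1 HAT or replicate 3 or 4 of 6 HAT. The higher gene was lost without replicate 1 or 2 of 1 HAT or replicate 3 of 6 HAT.

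The difference between the herbicide effects at 6 and 1 HAT was tested as an interaction in 16 libraries. For 2,4-D, 17 of 61 tested genes had a lower fold change at 6 than at 1 HAT and 1 a higher one, where 3.79% and 5.71% of all tested genes did (9.5% in either direction). For dicamba 4 of 62 were lower and 1 higher, where 1.84% and 3.34% of all were (5.17% in either direction). For halauxifen-methyl 4 of 60 were lower and 1 higher, where 2.08% and 3.41% of all were (5.49% in either direction). The higher gene was FD3 for each herbicide (1.60, 1.55 and 1.24 for 2,4-D, dicamba and halauxifen-methyl). Both FED A hits were lower for each, at -2.001, -1.53 and -1.60 for HW_30945_g and -1.51, -1.57 and -1.74 for HW_30946_g. The halauxifen-methyl interactions of these hits were lost without water replicate 2 or 3 or halauxifen-methyl replicate 1 of 6 HAT and without several libraries of 1 HAT, with adjusted p up to 0.078 and 0.057.

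With 2,4-D the interaction also covered the PSAE-2 hit HW_16037_g (-1.51), PSAN (-1.14), PSBO2 (-1.08), FNR2 (-1.03), PPD5 (-1.23) and the PSAA hit HW_50607_g (-1.72). The 2,4-D count of 18 was 7 in 1 fit of all 32 libraries, and it was 11 without 2,4-D replicate 4 of 1 HAT and 9 without water replicate 2 or 2,4-D replicate 2 of 6 HAT. The halauxifen-methyl count of 5 was 9 by DESeq2, and it was also 9 without halauxifen-methyl replicate 4 of 1 HAT, the library with the low share, and 1 without water replicate 2 or halauxifen-methyl replicate 1 of 6 HAT. It was 3 without halauxifen-methyl replicate 1 of 1 HAT or without water replicate 1 or halauxifen-methyl replicate 2 of 6 HAT, and 2 without water replicate 1, 2 or 3 or halauxifen-methyl replicate 2 or 3 of 1 HAT or water replicate 3 of 6 HAT.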

How the data were processed

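Raw read counts per predicted gene were used as the authors deposited them. Per the paper's methods and the labels, poly(A)-selected leaf RNA was sequenced in paired ends, trimmed, aligned with STAR 2.5.2b to a draft genome and counted with HTSeq 0.6.1 on GeneMark gene models. The counting mode and strand setting are not given in the sources used here, and near-identical copies may share reads. Positions and coding lengths came from the deposited gene models, which hold no untranslated regions. Gene names are those of the best Arabidopsis hit in the deposited annotation. The PSBD hit HW_48915_g and the FED A hit HW_54329_g have other or no best hits in the general protein database and are uncertain.

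The main test was edgeR 4.0.16 (R 4.3.3) in its quasi-likelihood form with TMM scaling, filterByExpr with a minimum count of 10, and Benjamini-Hochberg adjustment over all tested genes (14184 to 14528 against water), called at 0.05. Each comparison used only its own groups, and 48 pairs of replicates all differed beyond sampling noise, with a chi-square of at least 19.6 per degree of freedom. Ratios of copies (13 pairs at 10 CPM or more, 0.5 CPM added) were tested by exact permutation. Alternatives were DESeq2 1.42.0, edgeR's exact test, DESeq2 size factors, TMM without photosynthesis genes, leaving the low-count filter out, a minimum of 10 counts in each library, 1 fit of all 32 libraries, the replicate number as a block and leaving out each library. On simulated counts the test recovered 191 of 200 changed genes with 9 false calls among 14110 genes for 2,4-D against water at 6 HAT. For the interaction of 2,4-D with time it recovered 98 of 200 with 1 false call among 15371 genes. The changed genes had a median size of 2.03 and 2.07 in log2 units, in the same order. Recovery of genes with smaller fold changes, such as most of those given above, was not tested. Recovery at the spread between replicates of these data (biological coefficient of variation 0.482 to 0.581 against water) was also not tested. Figures were drawn with matplotlib 3.10.9.

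Replicate numbers did not pair the libraries, since correlations of same-numbered deviations ran from -0.237 to 0.339 and none of 10 comparisons had them all above 0.1. A gene with 0 counts in a library may have had up to 3, equal to 0.113 to 0.285 CPM, which covers counting error only.

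Genes were named by a rule: in each role the 2 tested genes of highest mean CPM, all genes called higher than water, called at 1 HAT, called between herbicides or in an interaction (the 5 largest if over 10), the 5 largest and 5 smallest mean changes among genes called lower by each herbicide at 6 HAT, and genes over 100 CPM without a call at 6 HAT. Further genes (the PSBP-1 hit HW_36782_g, the FdC1 hit HW_52066_g, FED A hit HW_54329_g, the AT4G26620 hit, PSBA, PSBB, PSBD and PSBE hits, and those of the electron transport list) were chosen after their values were seen. The genes, the lists and the split by hit genome were chosen with earlier results of these data known. The authors' own test results were not used.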

Additional observations from a re-analysis of the deposited data

Results flagged for a closer look

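Among 76 groups of 4 libraries examined, 3 held a library far from its companions, and chance gives about 1 in 20 groups. Halauxifen-methyl replicate 4 of 1 HAT stood low for the share of counts on all 98 genes (6.30%) and on those with a nuclear hit (6.24%). Dicamba replicate 4 of 6 HAT stood apart for the PSBA hit HW_54117_g, at 51.8 CPM. The herbicide effect differed between 6 and 1 HAT by the interaction test of edgeR for 18 genes with 2,4-D, 5 with dicamba and 5 with halauxifen-methyl.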

How the results depend on the processing

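Among 90 calls of named genes no direction turned under any alternative, 70 calls held in all alternative fits other than the replicate block and leave-one-out, and 48 held with any single library left out. With the replicate number as a block, although the numbers did not pair the libraries, 61 of the 90 held, and the genes that fell against water at 6 HAT numbered 19 with 2,4-D, 10 with dicamba and 8 with halauxifen-methyl, with 1 higher after 2,4-D and 1 after halauxifen-methyl. The block gave 2 lower genes for water at 6 against 1 HAT, 3 calls in the halauxifen-methyl interaction and 2 between 2,4-D and halauxifen-methyl. One fit of all 32 libraries gave 18 lower and 1 higher after 2,4-D, 2 higher after dicamba, 2 lower in water at 6 against 1 HAT and 7 calls in the 2,4-D interaction. DESeq2 gave 4 higher after 2,4-D and 2 after dicamba at 6 HAT, 1 higher after dicamba at 1 HAT, 4 higher in water at 6 against 1 HAT, 9 calls in the halauxifen-methyl interaction and 12 between 2,4-D and halauxifen-methyl. edgeR's exact test gave 2 higher after dicamba at 6 HAT, 1 lower and 1 higher after dicamba at 1 HAT, 3 higher in water at 6 against 1 HAT and 13 between 2,4-D and halauxifen-methyl, and was not run for interactions, which it could not fit. Without the low-count filter there were 1 higher after 2,4-D at 6 HAT, 1 lower and 1 higher after dicamba at 1 HAT, 5 higher in water and 11 between 2,4-D and halauxifen-methyl, and a minimum of 10 counts in each library gave 3 higher in water. Leaving out each library in turn, at 6 HAT 20 to 33 genes fell after 2,4-D, 7 to 15 after dicamba and 7 to 25 after halauxifen-methyl, and 1 to 3, 1 to 2 and 1 to 3 rose. At 1 HAT it gave 0 to 1 higher after 2,4-D and 0 to 1 lower after dicamba, in water 1 to 5 lower and 0 to 1 higher, in the interactions 9 to 20, 4 to 6 and 1 to 9 calls for 2,4-D, dicamba and halauxifen-methyl, and between herbicides 0 to 3 for 2,4-D and dicamba and 1 to 15 for 2,4-D and halauxifen-methyl. The cause of these shifts was not tested.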

Other observations

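A FED A hit of low level in most libraries was high in a few. HW_54329_g ran from 164 to 868 CPM in 6 libraries, all of 1 HAT (water replicate 4, 2,4-D replicates 1, 3 and 4, and halauxifen-methyl replicates 3 and 4), and from 0.0864 to 10.2 CPM in the other 26. The FED A hit HW_30987_g ran from 27.2 to 109 CPM in the same 6 libraries and from 0.223 to 15.3 CPM in the other 26. HW_54329_g has a coding length of 1680 bases in 10 exons, unlike the other FED A hits described, and its annotation is uncertain.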
